A study of Mus musculus with 64 samples.

Results

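The genes that encode the proteins of the cytosolic ribosome were followed in 64 single cells sorted from mouse teeth. Members were the rows of the count table whose symbol is Rps or Rpl with a number and, where present, a final a or x, together with Rpsa, Rplp0, Rplp1 and Rplp2. This gave 76 genes of 24530, of which 30 belong to the small subunit, 43 to the large subunit and 3 to the P-stalk. The cells came from molars (32 cells) and incisors (32 cells) of XLacZ4 mice, a strain in which a lacZ transgene is known to mark vascular mural cells. They were stained with FDG, which fluoresces once the lacZ enzyme has cleaved it. Positive cells were sorted by flow cytometry and sequenced with Smart-Seq2, which reads full-length cDNA. The labels give no age, sex, treatment or animal, and pooling of animals was not stated. Each tissue therefore counted as 1 sample, no test between groups was made, and no difference below has a replicate check.

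The labels call all 64 cells pericytes, and the markers went against this for most of them. By the class rule used here, a mural-like cell had at least 500 CPM of Rgs5, a pericyte gene, and 0 reads of Csf1r, the receptor that marks macrophages. CPM is the gene's count scaled to a common library total. A macrophage cell had at least 1 Csf1r read and under 500 CPM of Rgs5. The rule gave 15 mural-like cells (9 molar, 6 incisor), 47 macrophage cells (22 molar, 25 incisor) and 2 cells in neither class. Since the rule fixed Rgs5 and Csf1r, the marker lists were read without them. In the mural-like cells 8 of 10 other macrophage markers were at 0, among them C1qa, C1qb, C1qc and Tyrobp, and the summed level of the list ran from 0 to 33.3 CPM, against 2948 to 32331 CPM in the macrophage cells. In the macrophage cells 5 of 9 other pericyte markers were at 0, among them Pdgfrb, Cspg4 and Kcnj8, and the list ran from 0 to 101 CPM, against 1075 to 11281 CPM in the mural-like cells. Total counts ran from 514492 to 3171734 per cell and genes read from 922 to 4213. Depth moved with class, with a median of 2.77e+06 counts in mural-like and 1.43e+06 in macrophage cells, while the median numbers of genes read were 2529 and 2587. Incisor cell 2 stood apart among the mural-like cells. It had 570 CPM of Rgs5, just above the threshold, where the other 14 had at least 14729 CPM, and it held 15.3% of its counts in Malat1, a nuclear noncoding RNA, and 11.9% in Rn45s, a ribosomal RNA precursor, where the others had at most 2.49% and 1.35%. Several results that rest on this cell are given with and without it.

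The ribosome consists of a small subunit, which decodes the mRNA, and a large subunit, which forms the peptide bond. Most subunit proteins are needed in equal amounts and each is encoded by a single active gene that has left many processed copies in the genome. The P-stalk, built from Rplp0, Rplp1 and Rplp2, recruits the elongation factors. The mRNAs begin with a 5′ terminal oligopyrimidine (TOP) tract, a C followed by a run of pyrimidines, through which the TOR pathway controls their translation.

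The first feature of the gene group was that 4 members were nearly unread. Rpl26 had 0 counts in all 64 cells, a counting bound of 0.0256 CPM (3 counts of 116987360) if reads are taken as independent. Rps27 had 195 counts in 2 cells, Rpl30 had 180 counts in 6 cells and Rpl34 had 754 counts in 12 cells. Every other member was read in at least 46 cells. All 4 have a row in the table for a second gene whose coding sequence is nearly the same, and all 4 of those rows were at 0. Coding sequences of the member and of its near-copy are shown as windows of 60 bases from GENCODE M21 transcripts. Letters are lower case with the mismatched base in capitals, and positions count from 1 at the A of the member's start codon.

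Rps27, coding bases 1 to 60: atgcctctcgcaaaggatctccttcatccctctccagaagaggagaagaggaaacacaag
Rps27rt, same stretch: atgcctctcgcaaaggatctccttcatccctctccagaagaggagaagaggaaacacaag
Rpl30, coding bases 66 to 125: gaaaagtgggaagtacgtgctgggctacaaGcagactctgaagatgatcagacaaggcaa
Gm12191, same stretch: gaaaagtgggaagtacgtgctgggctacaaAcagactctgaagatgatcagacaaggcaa
Rpl26, coding bases 147 to 206: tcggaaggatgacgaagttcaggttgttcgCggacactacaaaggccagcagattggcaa
Gm15772, same stretch: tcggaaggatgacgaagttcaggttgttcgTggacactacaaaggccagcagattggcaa
Rpl34, coding bases 102 to 161: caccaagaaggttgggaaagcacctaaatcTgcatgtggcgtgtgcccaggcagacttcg
Rpl34-ps1, same stretch: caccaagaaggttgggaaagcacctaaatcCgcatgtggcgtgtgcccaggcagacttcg
Rpl37, coding bases 219 to 278: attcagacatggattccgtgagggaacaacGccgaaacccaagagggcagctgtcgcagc
Rpl37rt, same stretch: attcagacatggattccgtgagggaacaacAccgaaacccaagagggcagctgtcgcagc
Rplp2, coding bases 53 to 112: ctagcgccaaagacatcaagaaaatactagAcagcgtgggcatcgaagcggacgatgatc
Wdr89, same stretch: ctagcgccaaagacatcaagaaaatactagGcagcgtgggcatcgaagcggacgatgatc

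The coding sequences of Rps27 (chr3:90212522-90213651, minus strand of GRCm38) and Rps27rt (chromosome 9) were identical over 252 bases. Rpl30 (chr15:34440505-34443640, minus strand) differed from Gm12191 (chromosome 11) only by G96A, over 345 bases. Rpl26 (chr11:68901583-68906989, plus strand) and Gm15772 (chromosome 5) shared 99.54% of 435 bases, and C177T is the mismatch shown. Rpl34 (chr3:130726831-130730398, minus strand) and Rpl34-ps1 (chromosome 6) shared 99.43% of 351 bases, and T132C is the mismatch shown. GENCODE lists Gm12191, Gm15772 and Rpl34-ps1 as processed pseudogenes, which are intronless copies of an mRNA.

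Other members with a near-copy in the table had reads, and the last pairs are shown for this. Rpl37 (chr15:5116645-5119140, plus strand) differs from Rpl37rt by G249A, sharing 99.66% of 291 coding bases, and the rows held 26759 and 5707 counts. Rplp2 (chr7:141447370-141451585, plus strand) shares 99.42% of 345 coding bases with a transcript of Wdr89, with A83G in the window, and the rows held 23493 and 0 counts. Over all 76 members the share of 50-base stretches found also in transcripts of other genes had a Spearman's rho of -0.08 with detection, as a description across genes, which are not independent. How multiply mapped reads were counted is not given in the sources used here, and the part of the copies in the low counts was not tested. Levels of these 6 genes are uncertain for that reason. So are those of Rpl31, Rpl21 and Rps26, whose near-copies Rpl31-ps12, BC004004 and Gm6654 share 98.9%, 98.5% and 97.4% of the coding bases and held 2725, 7312 and 2696 counts. Rpl14 is uncertain too. Rpl14-ps1 holds an unbroken run of 419 of its 651 coding bases and had 9950 counts, against 35254 for Rpl14. The list is not complete, since copies without a row or with a small share of stretches were not compared base by base. Rps15a shares 6.04% of the stretches of its 5130-base transcript with 39 other genes, and Rps15a-ps6 and Rps15a-ps4 held 2184 and 1272 counts. Rps20 shares 7.44% with 31 genes and Rpl35a 52.9% with 19, so these levels are uncertain too.

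The reads of the 3 near-absent members with counts came from single cells at low levels. Rps27 was read in molar cell 22, a mural-like cell, at 29.3 CPM (93 counts) and in incisor cell 7, a macrophage cell, at 64.6 CPM (102 counts). Rpl30 reached at most 48.0 CPM, in incisor cell 9, and Rpl34 at most 113 CPM, in incisor cell 16. Molar cell 22 was the 1 cell with reads of all 3 genes. It held 75 of the 76 members, the most of any cell.

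Members made up 2.11% of all counts when the 64 cells were summed. Per cell the share had a lowest value of 0.752%, a median of 2.22% and a highest value of 4.56%. In molar cells it was 0.878% at the lowest, 1.98% at the median and 3.49% at the highest, and in incisor cells 0.752%, 2.38% and 4.56%. The tissues overlapped over most of their range. In macrophage cells the share was 0.752%, 2.39% and 4.56% in the same order, and in mural-like cells 0.944%, 1.59% and 2.46%. All 15 mural-like cells lay within the range of the macrophage cells, in its lower part. The lower median held in each tissue, with 1.51% in molar and 1.62% in incisor mural-like cells against 2.35% and 2.39% in the macrophage cells. Of the cells in neither class, molar cell 10, which carried dental epithelium markers, was at 1.48%. Those markers summed to 5.64e+05 CPM, which leaves less of the cell's total for all other genes. Incisor cell 13, with both Rgs5 and Csf1r, was at 3.29%, and each of these cells read 72 members.

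**Figure D1:**
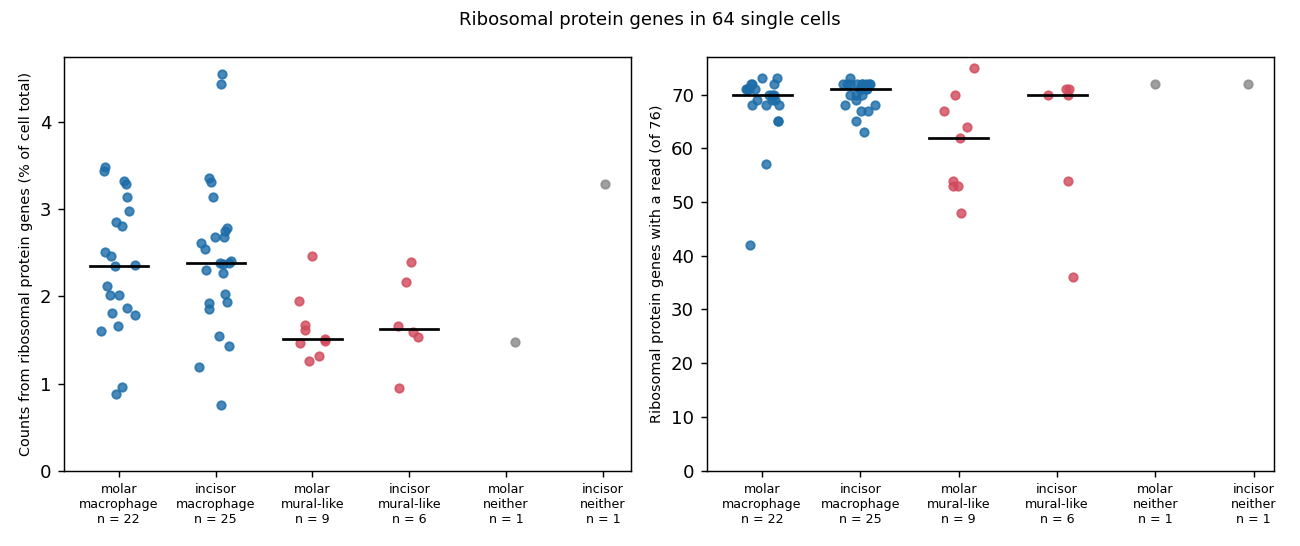
Each point is 1 cell, by tissue and class. The left axis is the percent of the cell's counts from the 76 ribosomal protein genes and the right axis the number of these genes with at least 1 read, with black lines at the medians of groups of more than 1 cell. Mural-like cells sit between 0.944% and 2.46%, inside the macrophage range, and some of them read far fewer members than the macrophage cells.

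The small subunit (30 genes) made up a median of 0.846% of a cell's counts and the large subunit with the P-stalk (46 genes) 1.33%, and the ratio of small to large had a median of 0.628 over the 64 cells. The ratio was 0.408 at the lowest, 0.672 at the median and 2.94 at the highest in macrophage cells, and 0.234, 0.550 and 0.998 in mural-like cells. Without incisor cell 2, which had the lowest ratio, the mural-like range began at 0.320. The value of 2.94 belonged to molar cell 6, which had the lowest total (514492 counts), 1118 genes read, 42 members read and 17.4% of its counts in Malat1. The next highest macrophage cell was at 1.09.

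Detection of the members was high for their level. Since cells differed in depth, each was thinned at random to 1.04e+06 reads, which kept 57 cells and left out 7 shallower ones. All 7 were macrophage cells, so thinned values by class leave out shallow cells of that class only. The median member was read in 93.0% of the thinned cells and in 93.75% of the 64 unthinned ones. At least 90% of thinned cells held a read for 52 of 76 members, and every thinned cell did for 9. Without thinning Rpl41, Rps9, Rps18 and Rps29 were among the members read in all 64 cells. Rps29, a small subunit protein that binds zinc, reached this at 363 CPM, and 57 of 57 thinned cells give an exact Clopper-Pearson interval of 93.7% to 100% at the 95% level. Such an interval covers the counting error over these pooled cells and says nothing of other animals. Between 100 and 1000 CPM of the summed cells there were 64 members with a median detection of 94.7%, none under 86.0%, and 1902 other genes with a median of 50.9%. At least 90% of cells was reached by 51 of these 64 members and by 71 of the 1902 others (3.73%). Members thus formed 29.5% of the 176 genes of the whole table read in at least 90% of thinned cells.

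**Figure D2:**
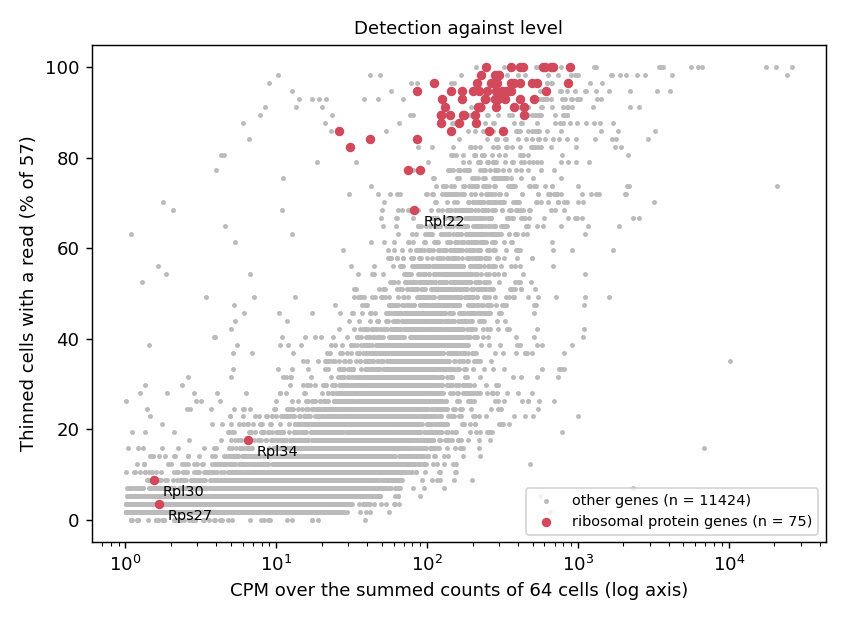
Each point is 1 gene. The x axis is its CPM over the summed counts of 64 cells on a log axis and the y axis the percent of 57 thinned cells with a read. Most ribosomal protein genes lie at the upper edge of the cloud, Rps27, Rpl30 and Rpl34 lie at its lower left, and Rpl26, at 0, is not drawn.

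Below this group, Rpl22 (chr4:152325742-152334071, plus strand), a large subunit protein that is dispensable for the ribosome and binds other RNAs, was the least detected of the readable members. It was read in 39 of 57 thinned cells (68.4%, interval 54.8% to 80.1%) at 82.0 CPM, and by class in 30 of 40 macrophage (75%) and 7 of 15 mural-like cells (46.7%). Levels of the 72 members over 10 CPM ran from 25.9 CPM (Rpl35a) to 888 CPM (Rpl5, which carries the 5S rRNA), with a median of 263 CPM. Per kilobase of transcript the median was 314 CPM. The highest were Rpl41, which encodes a very short basic peptide, at 942 CPM per kilobase, Rps19 at 932, Rps29 at 929, Rpl13 at 882 and Rps14 at 831. Rps19 and Rps14 are both needed to form the small subunit. The lowest of the 72 was Rps15a at 31.8 CPM per kilobase. Its annotated transcript of 5130 bases, and that of Rps20 with 3706 bases, are long beside coding sequences of 390 and 357 bases, so their levels per length are uncertain.

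Zeros of the 72 readable members gathered in few cells. Of 4608 pairs of member and cell 317 (6.88%) were 0, which was 16.02% of the pairs in mural-like and 4.26% in macrophage cells. The 8 cells with the most zeros held 180 of them (56.8%), and 6 of the 8 were mural-like. Incisor cell 2 missed 36 of the 72 genes, molar cell 6 missed 30 and molar cell 23 missed 24, while 18 cells missed none. Without incisor cell 2 the mural-like share of zeros was 13.6%. Zeros were not counted for other genes, and cells with many zeros also read few genes of any kind. After thinning, members were a median of 2.60% of the genes read in mural-like and 2.72% in macrophage cells. Incisor cell 2 and molar cell 23 were at 3.87% and 3.77%. The zeros are thus not particular to the members. Where a member was read it was mostly well above 1 read, with a median of 382 reads, and 5.90% of the 4291 pairs read held under 10.

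The number of members read was 42 at the lowest, 71 at the median and 73 at the highest in macrophage cells, and 36, 64 and 75 in mural-like cells. After thinning the medians were 70.5 and 61. Without incisor cell 2 the mural-like cells read 48 members at the lowest, and the thinned median was 63.5. In the mural-like cells the number moved with the number of all genes read (Pearson's r 0.93, Spearman's rho 0.94, 15 cells) and with the total counts (r 0.92, rho 0.82). It moved against the percent of counts in Malat1 (r -0.73, rho -0.80). Without incisor cell 2 these 3 relations had an r of 0.93, 0.86 and -0.73 over 14 cells. In the 47 macrophage cells the number had an r of 0.54 and a rho of 0.48 with genes read, 0.14 and 0.13 with total counts, and -0.53 and -0.10 with Malat1. These measures all come from the same library of a cell, and the part of library quality was not tested. The median member was read in 80% of thinned mural-like cells, incisor cell 2 among them, and in 97.5% of thinned macrophage cells. The share was lower in mural-like cells for 62 members (81.6%), higher for 4 and equal for 10. Among other genes of 100 to 1000 CPM the medians were 46.7% and 55%, and 60.7% of these genes had a lower share in mural-like cells.

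**Figure D3:**
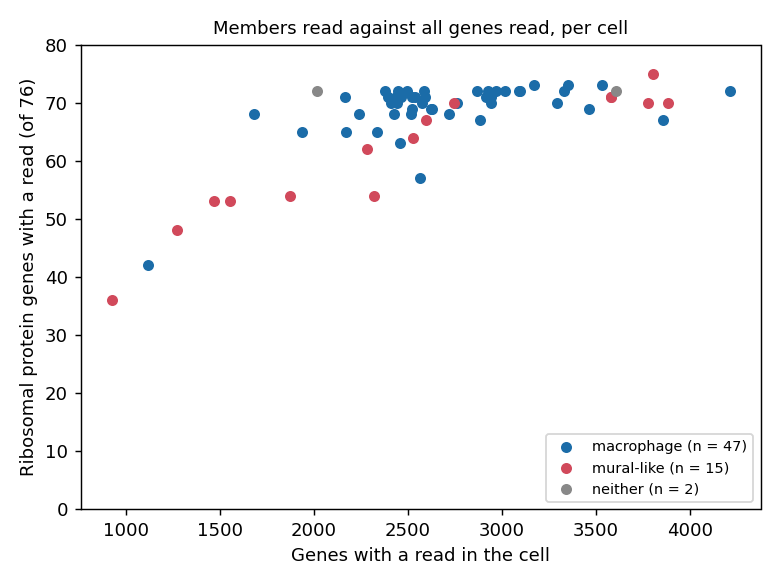
Each point is 1 cell, with the number of genes read on the x axis and the number of ribosomal protein genes read, of 76, on the y axis, coloured by class. Macrophage cells lie mostly near 71 members, and the mural-like cells with few genes read, down to 36 members in incisor cell 2, fall along a slope.

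Between tissues the members differed little. With counts summed per tissue, 0 of the 73 members with a mean of at least 5 CPM were 2-fold higher in molar cells and 0 were 2-fold lower, where 22.8% of the 9934 genes measured were higher and 28.1% lower. Among genes of 100 to 1000 CPM, the range of most members, the background was 9.69% and 10.2%. Log2 ratios here are of summed CPM plus a pseudocount of 1, which understates the change of low genes. The median log2 ratio of molar over incisor was -0.13 for members and -0.13 for all genes measured, with SDs over genes of 0.29 and 2.23. The extremes were Rps18, which sits at the head of the small subunit, at 189 CPM in molar and 306 CPM in incisor cells (log2 ratio -0.69), and Rps27a, a fusion of ubiquitin with a small subunit protein, at 199 and 138 CPM (0.52). Within the macrophage cells 2 members, Rpl34 and Rpl7, were 2-fold lower in molar cells and 0 higher (background 31.5% and 25.2%). Within the mural-like cells, 9 against 6, the split was 10 lower and 8 higher (background 37.3% and 31.4%). Those 10 included Rpl23, Rpl12, Rpsa and Rplp2, and the 8 included Rps12, Rpl22 and Rpl34. All genes in these last 2 counts were named after their values were seen.

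Between classes the members leaned to the macrophage cells. With counts summed per class, 27 of 73 members were at least 2-fold lower in mural-like cells (37.0%), and 35% of all 9798 genes measured were. None was 2-fold higher, against 35.7% of all genes. The number lower was thus near the background. The median log2 ratio of mural-like over macrophage was -0.66 for members and 0.07 for all genes, and the SDs over genes were 0.72 and 3.49. Below 0 were 63 of 73 members (86.3%) and 48.8% of all genes. Of the 64 members of 100 to 1000 CPM 22 were lower and 0 higher, where the background was 29.9% and 32.4%. Scaling by TMM, which sets a trimmed mean of log ratios to 0, lowered the class scale by 0.33 on log2. It gave 36 members lower (49.3%) and 0 higher, with 38.7% of all genes lower and 31.3% higher, and medians of -0.98 for members and -0.25 for all genes. Of the 10 members above 0 it left 5, Rpl7, Rpl13, Rpl23a, Rpl34 and Rps2, and put Rpl3, Rpl4, Rpl41, Rplp0 and Rps14 below 0. In single cells the ranges of the classes overlapped for all 72 members over 10 CPM, and the median was lower in mural-like cells for 60 of them and higher for 12. Ranges overlap by necessity where each class holds a cell at 0, and neither count was made for other genes. Fewer transcripts per cell and a smaller part in a cell's RNA cannot be told apart here, since each cell was scaled to its own total.

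**Figure D4:**
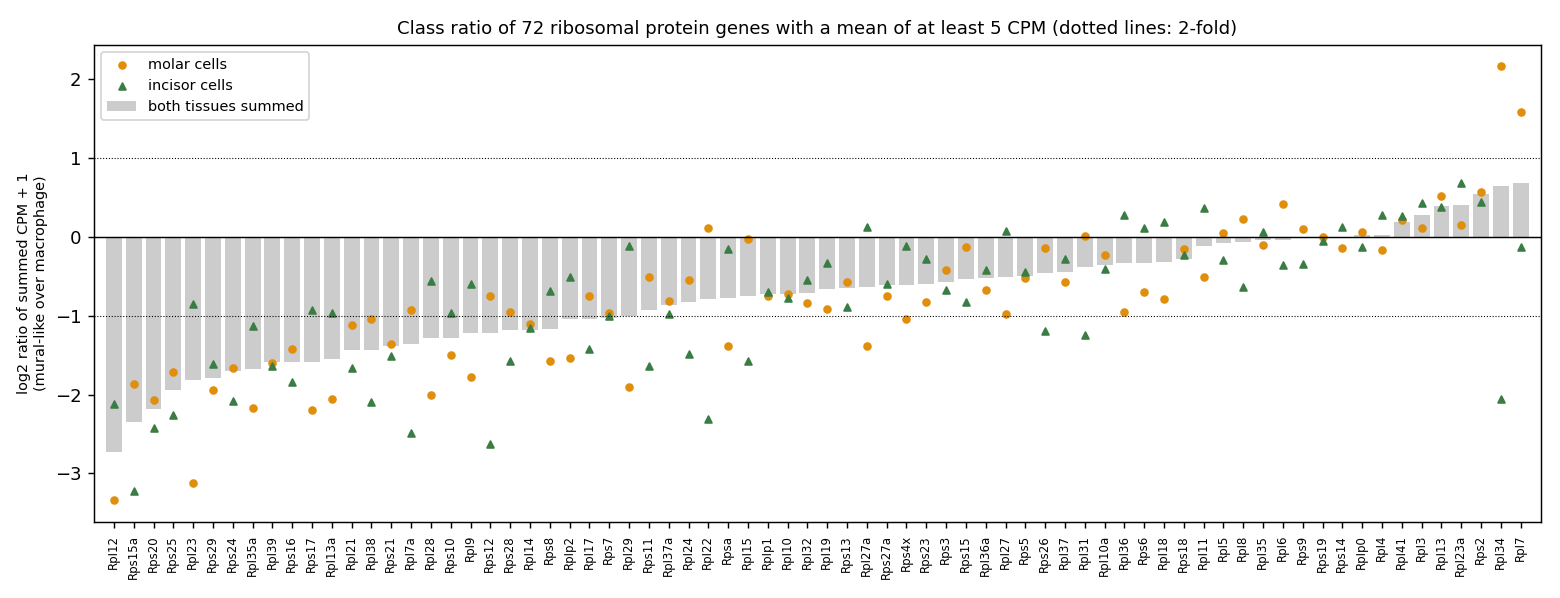
Bars give the log2 ratio of summed CPM plus 1, mural-like over macrophage, for 72 of the 73 members with a mean of at least 5 CPM, in order. Circles and triangles give the same within molar and within incisor cells, and dotted lines mark 2-fold. The bars run from -2.73 at Rpl12 to 0.68 at Rpl7, and for many members the tissues differ in sign or size.

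Among small subunit genes the median log2 ratio was -0.77 and 13 of 29 were 2-fold lower, where 35% of all genes were. Rps15a (chr7:118104372-118116188, minus strand) was at 0, 209 and 1017 CPM (lowest, median and highest) in macrophage cells and at 0, 3.86 and 291 CPM in mural-like cells. Its summed level was 231 against 44.3 CPM, a log2 ratio of -2.35. Many mural-like cells were thus near 0, with 5 of 15 without a read, but the highest overlapped the macrophage cells. Rps20 (chr4:3831334-3835665, minus strand), which lies in the head of the subunit, was at 0, 208 and 1952 CPM in macrophage and at 0, 49.3 and 138 CPM in mural-like cells, a log2 ratio of -2.19. Rps25 (chr9:44407139-44410427, plus strand), which some viral mRNAs need for internal initiation, was at 0, 294 and 1632 CPM in macrophage and at 0, 22.8 and 288 CPM in mural-like cells, a log2 ratio of -1.95. Rps29 (chr12:69157722-69159186, minus strand) had a read in every cell and differed in level, with 21.4, 394 and 1492 CPM in macrophage and 4.06, 130 and 303 CPM in mural-like cells. Its highest mural-like cell was below the macrophage median, and the log2 ratio was -1.80.

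Other small subunit genes differed less in the sums. Rps19, which is mutated in Diamond-Blackfan anaemia, was summed to 602 CPM in macrophage and 599 CPM in mural-like cells, and Rps14 to 490 and 491 CPM. Rps6, the subunit protein phosphorylated by S6 kinase, was at 410 and 326 CPM (log2 ratio -0.33). Rps4x, encoded on the X chromosome, was at 329 and 215 CPM (-0.61). Rpsa, which is also known as a laminin receptor, was at 408 and 238 CPM (-0.77), and Rps27a at 190 and 124 CPM (-0.61). The ratio of Rps27a was -1.06 without molar cell 23.

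Among large subunit genes the median was -0.64 and 13 of 41 were 2-fold lower, near the 35% of all genes. Rpl12 (chr2:32961559-32965345, plus strand), which lies at the base of the P-stalk, was at 0, 223 and 710 CPM in macrophage cells and at 0, 7.85 and 168 CPM in mural-like cells. Summed levels were 242 and 35.6 CPM, a log2 ratio of -2.73, with -3.34 in molar and -2.12 in incisor cells. All mural-like cells were below the macrophage median, and 4 of 15 had no read against 2 of 47. Rpl23 (chr11:97777527-97782437, minus strand), one of the subunit proteins known to bind Mdm2, was at 0, 345 and 1351 CPM in macrophage and at 0, 69.5 and 1072 CPM in mural-like cells. Its log2 ratio of -1.81 was -3.12 in molar and -0.85 in incisor cells, and -2.31 without incisor cell 2, the mural-like cell at 1072 CPM. Rpl13a, known for a role outside the ribosome in translational silencing, was at 687 and 234 CPM summed (-1.55).

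The other large subunit genes described lay between these and a ratio above 0. Rpl5 was at 898 CPM in macrophage and 851 CPM in mural-like cells (log2 ratio -0.08) and Rpl35 at 603 and 586 CPM (-0.04). The Rpl35 value includes incisor cell 2 at 2463 CPM, where the other incisor mural-like cells had at most 884 CPM. Rpl41 was at 377 and 432 CPM (0.19) and Rpl13 at 610 and 803 CPM (0.40). Rpl10, the X-linked protein that is among the last to join the subunit, was at 407 and 247 CPM (-0.72), and Rpl10a at 395 and 309 CPM (-0.35). Rpl22 had a log2 ratio of -0.79 that rested on molar cell 17, since it was -1.52 without this cell, and it was 0.11 in molar and -2.31 in incisor cells. Rpl7 (chr1:16101295-16104662, minus strand) had the highest ratio of all, 0.68, with 1.59 in molar and -0.13 in incisor cells, and was chosen for its value. Rpl34, at 0.65, rests on the 12 cells with reads.

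In the P-stalk Rplp0 was level, at 863 CPM in macrophage and 876 CPM in mural-like cells (log2 ratio 0.02), while Rplp1 was at 348 and 209 CPM (-0.73) and Rplp2 at 246 and 119 CPM (-1.05). The summed ratios within this 1 complex thus differed, but the level of Rplp2 is uncertain because of its near-copy. The Rplp1 sum includes molar cell 15 at 628 CPM, where the other molar mural-like cells had at most 292 CPM. Rplp2 was -1.54 in molar and -0.51 in incisor cells.

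**Figure D5:**
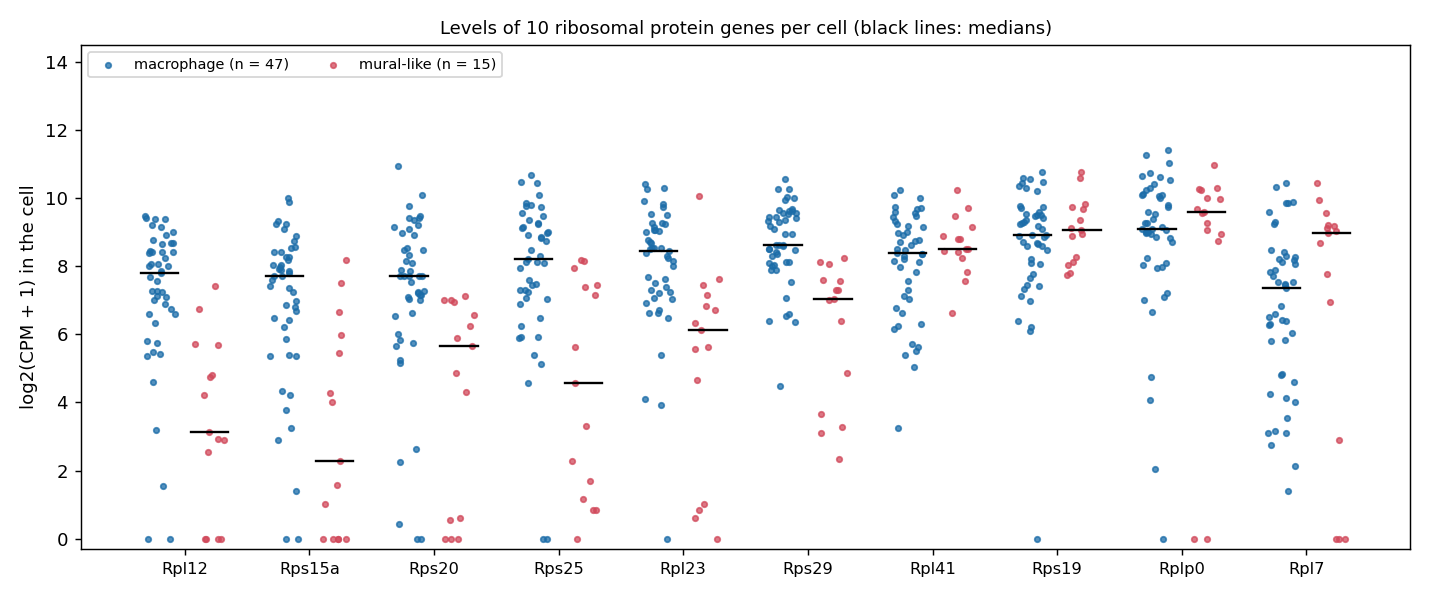
Each point is 1 cell, as log2 of CPM plus 1, for 10 members in macrophage (47) and mural-like (15) cells, with black lines at the medians. Rpl12, Rps15a, Rps20, Rps25 and Rpl23 reach 0 in both classes and have lower medians in mural-like cells. Rps29 is lower with no zeros, and Rps19, Rpl41 and Rplp0 lie at like levels.

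The tissues gave the class difference for partly different genes. In molar cells 25 of 73 members were 2-fold lower in mural-like cells and 2 higher, Rpl34 and Rpl7 (background 41.9% and 36.1%), and in incisor cells 23 of 72 were lower and 0 higher (background 40.3% and 36%). Both tissues shared 13, which was 52% of the molar and 56.5% of the incisor list, and 18.1% of the 72 members measured in both, where 24.6% of all genes were shared. These were Rpl12, Rpl14, Rpl21, Rpl35a, Rpl38, Rpl39, Rps15a, Rps16, Rps20, Rps21, Rps24, Rps25 and Rps29. Levels of Rpl14, Rpl21, Rpl35a, Rps15a and Rps20 are uncertain because of their copies, as given above. Another 18 members differed in sign between the tissues, a count that was not made for all genes. Rpl3, Rpl13, Rpl23a, Rpl41 and Rps2 were above 0 in both, also without a count for all genes. Across the 72 members the ratios in the tissues had a Pearson's r of 0.43 and a Spearman's rho of 0.45 (0.55 and 0.50 over all 7315 genes measured in both), as a description over genes that share the same cells. Across the 72 members over 10 CPM the class ratio had an r of 0.42 and a rho of 0.40 with coding length, but -0.23 and 0.11 with transcript length. Detection had an r of -0.003 and a rho of 0.14 with transcript length.

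Start sites of members were compared with the class ratios, because the TOP tract is the control element these genes share. RefSeq promoters (GRCm38.p6) were at hand for 56 of the 76 members. Shown are 30 bases, 15 before and 15 from the annotated start on, sense strand, with the tract in capitals where a C followed by at least 4 pyrimidines began within 5 bases before to 10 bases after the start. Members far below 0 and near 0 in class ratio were chosen, with and without the tract.

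Rpl12, chr2:32961697-32961726, plus strand, ratio -2.73: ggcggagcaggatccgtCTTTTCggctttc
Rps15a, chr7:118116133-118116162, minus strand, ratio -2.35: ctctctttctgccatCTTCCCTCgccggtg
Rps25, chr9:44407699-44407728, plus strand, ratio -1.95: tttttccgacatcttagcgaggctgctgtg
Rpl23, chr11:97782425-97782454, minus strand, ratio -1.81: acgaggtccggtcacgtggctgagtgggcg
Rpl35, chr2:39005117-39005146, minus strand, ratio -0.04: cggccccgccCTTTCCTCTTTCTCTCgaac
Rplp0, chr5:115559452-115559481, plus strand, ratio 0.02: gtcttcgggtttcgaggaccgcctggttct
Rpl41, chr10:128549154-128549183, minus strand, ratio 0.19: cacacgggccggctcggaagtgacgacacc

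The tract was found in 32 of 56 members (57.1%) and in 26.5% of all 27025 genes with a promoter in the table. Low ratios occurred with it (Rpl12, Rps15a) and without it at the annotated start (Rps25, Rpl23). The median class ratio was -0.79 for the 31 measured members with the tract and -0.57 for the 23 without. Over the whole promoter window, 250 bases before to 50 after the start and on both strands, CCGGAAG, the core of ETS factor sites, was in 41.1% of members and 9.93% of all genes. ATGGCGG was in 16.1% and 4.69%, and TATAAA in 10.7% and 15.7%. Medians of the class ratio were -0.55 with CCGGAAG and -0.76 without. A match is a description of the letters, and an annotated start can lie some bases from the one used.

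Genes tied to the ribosome but outside the symbol rule were set beside the members. The shares of all genes to read the counts against are 35% lower and 35.7% higher by 2-fold. Of 4 measured ribosomal protein genes or partners with other symbols, Rack1, a scaffold on the small subunit, was at 523 CPM in macrophage and 322 CPM in mural-like cells (log2 ratio -0.70), Rps3a1 at 471 and 285 CPM (-0.72) and Fau at 427 and 142 CPM (-1.58). Among 22 elongation and other genes with a known TOP tract the median was -0.20, with 4 lower and 0 higher by 2-fold. Eef1a1, which brings tRNA to the ribosome, was at 1736 and 1622 CPM (-0.10), and Tpt1 at 1200 and 401 CPM (-1.58). Of 30 ribosome assembly genes 12 were lower and 8 higher, with a median of -0.27, and Nop58, a box C/D snoRNP protein, was at 44.7 and 456 CPM (3.32). Of 14 S6 kinase and TOR pathway genes 7 were lower and 2 higher (median -1.15). The 73 mitochondrial ribosomal proteins, which serve a separate ribosome, had a median of 0.11 (-0.22 with TMM), with 13 lower and 20 higher, and were read in a median of 21.1% of thinned cells. The 5 paralogues of members had a median of 0.52. Of these Rps27l (-1.15) and Rpl36al (-1.43) were lower and Rps4l (2.18) higher by 2-fold, while Rpl22l1 was at 0.76 and Rpl7l1 at 0.52. Named pseudogenes of members had a median of -0.93 (5 genes, 2 lower).

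Members followed their own sum in part only. The Spearman correlation over the 64 cells of a member's CPM with the summed CPM of members had a median of 0.37 over 72 members, with Rpl38 at 0.67 and Rpl7 at -0.07 as the ends, while 2915 other genes read in at least 20 cells had a median of 0.07. A member's own counts are within the sum, and both classes are pooled. The other genes were not matched to the members in level or in cells read, so the medians compare genes of unlike detection. The non-members with the highest values were Rpl32l (0.62), Mir703 (0.60), Gm8624 (0.59), Rps15a-ps6 (0.56) and AI662270 (0.56). Of these, Rpl32l shares 14.53% of 50-base stretches with Rpl32 and Gm8624 shares 12.05% with Rps23.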

How the data were processed

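The authors deposited raw read counts per gene symbol and cell, unscaled. Trim Galore, HISAT2 (2), Seurat (3) and mm10 are named per the submitters' processing notes, and a counting tool is not given in the sources used here. The table has 188 columns, of which 64 carry the name of a labelled cell and 124 were not used. Smart-Seq2 reads carry no molecular identifiers, so intervals (95%) cover counting error only. Counts were scaled to CPM, summed per tissue or class, and compared as log2 of CPM plus 1 for genes with a mean of at least 5 CPM. Positions and transcripts are from GENCODE M21 (GRCm38), matched by symbol for all 76 members. Python 3.11.15, NumPy 2.4.6, pandas 2.3.3, SciPy 1.17.1 and matplotlib 3.10.9 were used, and the ratios and thinning were tested on simulated data. Members and lists were chosen with earlier results of these data known. Named members were fixed biological examples, the 5 best and least detected, the 5 highest and lowest per length, the 5 largest class differences past 2-fold and those without counts, and of each list up to 4 genes with the most counts. Alternatives were scaling, pseudocount, filters, class rule, thinning, and leaving out each cell. A few genes picked by this rule are left out of the text.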

Additional observations from a re-analysis of the deposited data

Results flagged for a closer look

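Of 55 groups of mural-like cells screened with Dixon's criterion for a single distant value (9 molar or 6 incisor cells each), 12 held a cell apart from the rest. The criterion flags about 1 in 20 groups by chance where values are normally distributed. CPM of single cells, with zeros in some groups, need not be, so the number to expect by chance is not known here. All 12 cells were the highest of their group. The groups share cells, so the flags are not independent. Molar cell 23 had a ratio of small to large subunit counts of 0.998, against 0.320 to 0.658 in the other 8 molar cells, and it was also apart for Rps27a (602 CPM, others up to 236) and Rps6 (1007 CPM, others up to 500.3). Molar cell 15 was apart for Rpl13 (1868 CPM, others up to 1027), Rplp1 (628 CPM, others up to 292) and Rps19 (1723 CPM, others up to 912). Molar cell 4 was apart for Rpl10a (1251 CPM, others up to 508), molar cell 22 for Rpl12 (105 CPM, others up to 25.8) and molar cell 31 for Rpsa (499.6 CPM, others up to 254). Among incisor cells, incisor cell 2 was apart for Rpl23 (1072 CPM, others up to 195) and Rpl35 (2463 CPM, others up to 884), and it read 36 members, the fewest of all 64 cells. Incisor cell 32 was apart for Rpl12 (168 CPM, others up to 52.0).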

How the results depend on the processing

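Of the counts of members past 2-fold and the medians given for tissues and classes, most moved little. Between tissues, macrophage cells alone gave 2 members lower in molar, and mural-like cells alone gave 8 higher and 10 lower, with fewer cells. Between classes, 2 members were higher within molar cells and 1 (Rpl34) in cells with at least 2000 genes read, a setting added after seeing the data that kept 10 mural-like and 44 macrophage cells. Counting only members with at least 10 reads lowered the macrophage median to 67 members. Without incisor cell 2 there were 26 members lower and 0 higher in mural-like cells. TMM scaling gave 36 members lower and a median of -0.98, and its shift between tissues was -0.12. Leaving out each cell in turn gave 23 to 28 members lower in mural-like cells and 0 to 1 higher (Rpl34, without incisor cell 1 or 16), 0 to 0 past 2-fold between tissues, median detection of 92.857% to 94.643%, 59.5 to 63.5 members read in mural-like and 70 to 71 in macrophage cells. The median shares ranged over 1.9482% to 2.0136% (molar), 2.3702% to 2.3862% (incisor), 2.3782% to 2.3871% (macrophage) and 1.5603% to 1.6013% (mural-like). Of 308 recomputed values of the 28 named members 175 moved by more than their counting interval. A change of sign was counted only for members at least 2-fold from 0 in the main setting, and 0 were found. Members nearer 0 did change sign, among them Rpl41, Rplp0 and Rps14 with TMM. No paired analysis was possible because no test was made and the shared cell numbers mark no animal. At this depth the 0 counts of Rpl26 give a counting bound of 0.0256 CPM. It takes reads as independent and does not cover how multiply mapped reads were counted.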
